A study of Arabidopsis thaliana with 6 samples.

Results

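The KNOX family of the model plant Arabidopsis thaliana was examined in mature root tissue of 2 genotypes. Its 8 genes with a homeobox were chosen by gene identifier from the 32833 identifiers counted: KNAT1 (AT4G08150), STM (AT1G62360), KNAT2 (AT1G70510) and KNAT6 (AT1G23380) of class I, and KNAT3 (AT5G25220), KNAT4 (AT5G11060), KNAT5 (AT4G32040) and KNAT7 (AT1G62990) of class II. All 8 had a row in every library, 7 passed the filter on low counts, and STM did not. The genotypes were the wild type, labelled WT (Col), and a line labelled myb68 myb84, a combination of mutations in R2R3 MYB transcription factor genes of one subclade. The study asked how these factors act on suberin deposition and stem cell proliferation in cork formation. The design text names MYB86 at one point in place of MYB84, and what each mutation is was not given in the sources used here. No treatment was applied to either group. Plants grew on 1/2 MS plates at 22 °C in constant light, and at 18 days the top 2 cm of the primary root was taken. Each of the 3 replicates per genotype pooled at least 40 plants, and a library averages all cell types of the segment, so that fewer cells of a type and less RNA per cell cannot be told apart.

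KNOX proteins are transcription factors of the TALE homeodomain group, named after the maize gene Knotted1. Class I genes act in shoot meristems and at organ boundaries, where they keep cells undifferentiated, raise cytokinin synthesis and restrain gibberellin synthesis, and leaves silence them. Class II genes are expressed more widely, in differentiating tissue, and KNAT7 among them is a regulator of secondary wall formation. KNOX proteins bind DNA as dimers with BELL proteins, the other TALE family of plants. In roots, KNAT1 is known from the cambium and from the control of xylem maturation, and KNAT6 from the base of lateral roots.

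The part of the homeobox that encodes the third helix, which reads the DNA, shows how close the members are. The 33 bases from the conserved tryptophan codon, read from the TAIR10.1 genome, lie within 1 exon in each gene and are given 5′ to 3′ on the coding strand. They are shown because they separate the classes and carry the pairs most easily confused in read counting. Capitals mark bases that differ from KNAT1 in class I and from KNAT3 in class II.
KNAT1 (chr4:5148083-5148115, minus strand): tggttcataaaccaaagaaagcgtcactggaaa
STM (chr1:23058913-23058945, minus strand): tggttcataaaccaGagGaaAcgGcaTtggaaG
KNAT2 (chr1:26582050-26582082, plus strand): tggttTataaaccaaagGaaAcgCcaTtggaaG
KNAT6 (chr1:8297565-8297597, minus strand): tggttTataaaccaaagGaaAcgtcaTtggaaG
KNAT3 (chr5:8737905-8737937, plus strand): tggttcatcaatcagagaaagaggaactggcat
KNAT4 (chr5:3512658-3512690, plus strand): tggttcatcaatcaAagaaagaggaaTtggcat
KNAT5 (chr4:15495829-15495861, plus strand): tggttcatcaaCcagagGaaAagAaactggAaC
KNAT7 (chr1:23340268-23340300, plus strand): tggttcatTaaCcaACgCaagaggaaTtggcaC

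In class I, STM and KNAT2 differed from KNAT1 in 6 of these bases and KNAT6 in 5. In class II, KNAT4 differed from KNAT3 in 2, KNAT5 in 6 and KNAT7 in 7. Over 189 bases of the homeobox region, identity was 72.5% to 85.7% within class I, 77.8% to 93.7% within class II and 57.1% to 63.0% between the classes. KNAT3 and KNAT4 formed the closest pair at 93.7%, and KNAT2 and KNAT6 were the closest in class I at 85.7%. Exchange of reads between members bears on the counts only where long stretches are identical. The longest identical run between spliced transcripts of any 2 members was 41 bases, in KNAT2 with KNAT6 and in KNAT3 with KNAT4. None of the 8 genes shares exon sequence with an annotated neighbour on either strand.

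Total counts were 19446419 to 55907128 per library. Of genes with 1 to 20 counts, 75.5% to 79.8% had an even count, as when both mates of a fragment are counted, so the number of independent fragments may be smaller than the counts, and counting intervals were taken on counts divided by 2. MYB84 was at 9.92 ± 2.69 CPM in wild type and lower in the line labelled myb68 myb84, at 6.0 ± 1.14 CPM (counts per 1e6 library counts; SD, n = 3), with a log2 fold change of -0.70 and an edgeR adjusted p of 0.0442. MYB84 no longer passed on omission of any 1 among myb68 myb84 1, myb68 myb84 2, WT 1 and WT 3 (adjusted p 0.0855 to 0.149). MYB68 was at 53.7 ± 7.42 and 67.8 ± 7.03 CPM and did not pass (log2 0.34, adjusted p = 0.0613), though it did without WT 3 (log2 0.46, adjusted p = 0.00666) and without myb68 myb84 1 (log2 0.42, adjusted p = 0.0471), as higher. Over all genes, edgeR's quasi-likelihood test called 1739 of 20941 tested genes, which is 8.30%, with 4.66% higher and 3.65% lower in the mutant at a Benjamini-Hochberg adjusted p under 0.05. The groups did not overlap in 27.2% of tested genes, with 14.1% higher and 13.2% lower. An unadjusted p under 0.05 was reached by 11.2% of tested genes as higher and by 10.8% as lower. DESeq2 called 5.75% higher and 4.84% lower, and limma-voom 5.10% and 3.91%.

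The family was carried by class II in both genotypes. Levels are compared between genes as CPM per kb of exon, which scales for the length of all annotated exons. Which transcript forms are present was not known, so the order of genes at close levels is not firm. In wild type, KNAT5 was the most abundant member at 43.2 ± 1.29 CPM per kb, followed by KNAT7 at 32.6 ± 1.52 and KNAT3 at 29.9 ± 0.59 (SD, n = 3). KNAT1 and KNAT6 came next, at 15.4 ± 1.76 and 13.2 ± 0.544 CPM per kb, and the ranges of these 2 overlapped. KNAT4 stood at 5.92 ± 0.277 CPM per kb. KNAT2 and STM were near the limit of detection at 0.314 ± 0.212 and 0.282 ± 0.207 CPM per kb, with overlapping ranges. KNAT7 and KNAT3 differed by a ratio of 1.09 in the wild type, with the lowest KNAT7 library at 31.3 and the highest KNAT3 library at 30.5 CPM per kb. In the mutant the order was KNAT5, KNAT3, KNAT7, KNAT1, KNAT6, KNAT4, KNAT2 and STM, with KNAT3 and KNAT7 overlapping and KNAT1 clear of KNAT6.

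**Figure D1:**
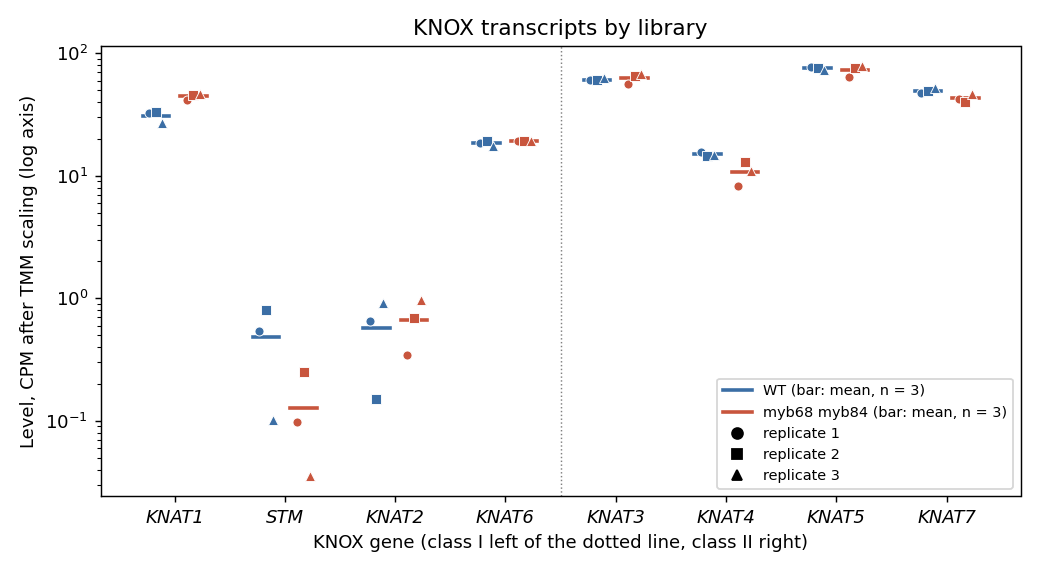
Level of each KNOX gene in CPM (log axis) in the 3 WT libraries (blue) and the 3 myb68 myb84 libraries (red), with bars at the means and symbols for replicate numbers. KNAT1 is higher in every mutant library, at 41.6 to 46.2 CPM against 27.0 to 33.3 CPM, while KNAT4 is lower in all 3, and STM and KNAT2 lie below 1 CPM.

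KNAT1 was the 1 KNOX gene of the 7 tested that passed in edgeR, as higher, against 8.30% of all tested genes called and 4.66% called higher. In 4 KNOX genes every mutant library lay on one side of every wild-type library, 2 higher and 2 lower, as in 27.2% of all tested genes, and with 7 genes these counts are only a description. KNAT1 (AT4G08150, chromosome 4, 5147699 to 5151159, minus strand), also known as BREVIPEDICELLUS, is a class I gene of stem and cambium. Its level was 32.9, 33.3 and 27.0 CPM in WT 1, 2 and 3 and 41.6, 45.6 and 46.2 CPM in myb68 myb84 1, 2 and 3. Every mutant library was above every wild-type library, and WT 3 was the lowest of the 6. The means were 31.1 ± 3.54 and 44.5 ± 2.51 CPM, a 1.43-fold rise (log2 0.51, SE 0.09, edgeR adjusted p = 0.00344). Without WT 3 the log2 fold change was 0.43 (adjusted p = 0.00582), and over the 6 fits that each left out 1 library it ran from 0.43 to 0.56 with an adjusted p of at most 0.0204. The size was close to the median of 0.54 among all called genes.

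The promoter of KNAT1 is given because this gene rose in a line labelled for MYB factors. It holds the 250 bases before the annotated start (TAIR10.1, chr4:5151160-5151409, minus strand), 5′ to 3′, with capitals for the match to the motif ACCNANC. This loose pattern takes in the AC elements that R2R3 MYB factors are known to bind, and other letters as well. A match to it need not be an AC element, and binding was not tested.
KNAT1 promoter: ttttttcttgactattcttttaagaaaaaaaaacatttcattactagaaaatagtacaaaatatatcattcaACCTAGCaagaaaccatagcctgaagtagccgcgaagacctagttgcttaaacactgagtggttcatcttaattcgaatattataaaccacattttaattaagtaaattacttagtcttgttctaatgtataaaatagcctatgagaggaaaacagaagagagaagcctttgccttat
The match, ACCTAGC, starts 178 bases before the annotated start on the coding strand. Both strands were searched. The other 7 KNOX promoters held no ACCNANC in this window, and 27.8% of 27437 promoters of protein-coding genes held at least 1. The letters TGACAG, a core bound by KNOX and BELL proteins, were in 0 of the 8 windows and in 5.86% of all.

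The other class I genes did not pass. KNAT6, active in root and shoot boundaries, was at 18.7, 19.2 and 17.7 CPM in WT 1, 2 and 3 and at 19.4, 19.4 and 19.3 CPM in the mutant libraries. These groups did not overlap, but they differed by 1.05-fold (log2 0.06, SE 0.09, adjusted p = 0.738). Within each library, KNAT1 per kb stood at 1.17 ± 0.0897 times KNAT6 in wild type and at 1.603 ± 0.0931 times KNAT6 in the mutant.

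STM and KNAT2 were detected at a few reads. STM, the gene that maintains the shoot meristem, had 28, 21 and 2 counts in WT 1, 2 and 3 and 4, 8 and 2 counts in myb68 myb84 1, 2 and 3. The 2 higher wild-type libraries stood apart from WT 3, which lay within the range of the mutant. On the CPM scale these were 0.541, 0.799 and 0.102 against 0.0982, 0.250 and 0.0357. The 95% Poisson interval, taken on fragments and covering counting error only, was 0.296 to 0.907 CPM in WT 1 and 0.000906 to 0.199 CPM in myb68 myb84 3. STM was too low for the filter. In the fit without WT 3 it was tested and passed as lower (log2 -2.49, adjusted p = 0.0467), and with no low-count filter it did not (log2 -2.03, adjusted p = 0.182). KNAT2, the close relative of KNAT6, had 34, 4 and 18 counts in wild type and 14, 22 and 54 in the mutant. The groups overlapped, at 0.152 to 0.914 and 0.344 to 0.963 CPM, with a log2 fold change of 0.25 and an SE of 0.56 (adjusted p = 0.851). Such an error would not let a change of the size seen in KNAT1 be detected.

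Among class II genes, 0 of 4 passed in edgeR, against 8.30% of all tested genes. In 2, every mutant library was below every wild-type library, as in 13.2% of all tested genes. With 4 genes these counts are only a description. An unadjusted p under 0.05 was reached by 2, both lower, against 10.8% of all tested genes. Both DESeq2 and limma-voom called 1, as lower, against 4.84% and 3.91% of all tested genes. That gene was KNAT4 (AT5G11060, chromosome 5, 3509833 to 3513741, plus strand). It was at 15.8, 14.5 and 14.7 CPM in WT 1, 2 and 3 and at 8.32, 13.04 and 10.9 CPM in the mutant libraries. The groups did not overlap, and myb68 myb84 1 was the lowest. KNAT4 stood at 0.714 times wild type (log2 -0.49, SE 0.14) with an edgeR adjusted p of 0.0567, just outside the threshold. The adjusted p was 0.0258 in DESeq2 and 0.0380 in limma-voom, while leaving out 1 library gave -0.33 without myb68 myb84 1 (adjusted p = 0.163) and a call at -0.64 without myb68 myb84 2 (adjusted p = 0.0243).

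KNAT7, which acts with BLH6 and OVATE family proteins on secondary walls, was at 47.6, 49.1 and 52.1 CPM in wild type and at 42.5, 40.2 and 46.9 CPM in the mutant. All mutant libraries were below all wild-type libraries by a small margin (log2 -0.20, SE 0.08, adjusted p = 0.156). KNAT3, a partner of BLH1 in seedling responses to abscisic acid, ran from 60.2 to 62.5 CPM in wild type and from 56.6 to 68.3 CPM in the mutant (log2 0.05, SE 0.08, adjusted p = 0.765). KNAT5 ran from 72.9 to 77.2 CPM and from 64.0 to 78.2 CPM (log2 -0.05, SE 0.08, adjusted p = 0.757). In both the mutant range enclosed the wild-type range, and myb68 myb84 1 was the lowest of the 6 libraries. The near relatives KNAT3 and KNAT4 thus differed in level by 5.05 ± 0.296 times per kb in wild type and by 7.44 ± 1.15 times in the mutant.

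The make-up of the family differed accordingly between the genotypes. KNAT1 held 11.5%, 11.6% and 9.64% of the family's summed level per kb in WT 1, 2 and 3 and 15.9%, 15.8% and 15.2% in the mutant libraries. Class I as a whole held 20.7% ± 1.41 in wild type and 25.7% ± 0.967 in the mutant (SD, n = 3). That difference lay mostly in KNAT1, at 10.9% ± 1.13 and 15.6% ± 0.337, while KNAT6 held 9.35% ± 0.276 and 9.77% ± 0.755. The summed level of class I was 29.2 ± 2.31 and 36.3 ± 1.39 CPM per kb, and that of class II was 111.6 ± 0.647 and 105.2 ± 9.03. These shares are given without a test.

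**Figure D2:**
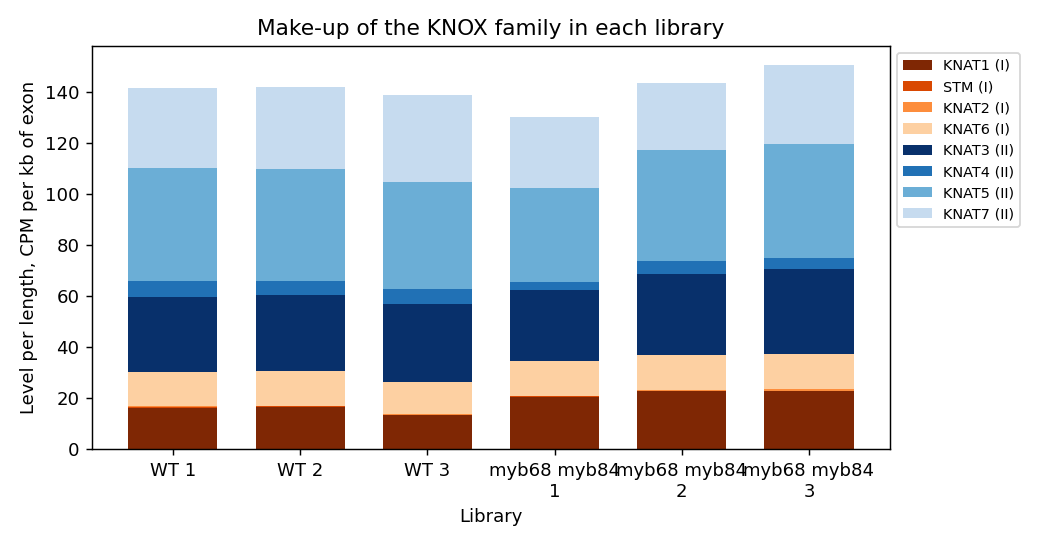
Stacked level per length (CPM per kb of exon) of the 8 KNOX genes in each library, class I in brown and orange and class II in blue. The KNAT1 band at the base is thicker in the mutant libraries, at 20.7 to 22.9 against 13.4 to 16.5 CPM per kb, and class II fills most of every bar.

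The BELL family, which provides the partners of KNOX proteins, had 2 genes called higher and 0 lower of 11 tested, against 4.66% and 3.65% of all tested genes. At an unadjusted p under 0.05, 5 were higher and 1 was lower, against 11.2% and 10.8% of all tested genes, while DESeq2 and limma-voom called 0 lower. BLH1 and BLH10 rose, 9 members did not pass, and BLH5 and BLH11 were too low to test. The median log2 fold change of the 11 was 0.19, against -0.0026 over all tested genes. BLH1 was at 70.0, 70.6 and 73.9 CPM in WT 1, 2 and 3 and at 94.7, 105.8 and 110.2 CPM in the mutant libraries. The gap between the groups was wider than the spread within either, with a 1.45-fold rise (log2 0.54, SE 0.07, edgeR adjusted p = 0.000732). BLH1 shares 929 exon bases with AT2G35945 on the opposite strand, a gene at 0.00644 CPM in the WT libraries and 0.0698 CPM in the mutant ones, and reads there cannot be told apart without strand. Within each library BLH1 per kb was 0.767 ± 0.00731 times KNAT3 in wild type and 1.07 ± 0.0209 times in the mutant. BLH10 averaged 39.8 ± 1.23 CPM in the wild type against 47.4 ± 2.34 CPM (log2 0.25, SE 0.07, adjusted p = 0.0482). The BLH10 call ended in each of the 6 fits with a library left out (adjusted p 0.0541 to 0.207) and with upper-quartile scaling (0.0677). BLH10 shares 58 exon bases with AT1G19690.

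Of the BELL genes with known roles beside class I KNOX genes, none passed in edgeR with all 6 libraries. ATH1, a partner of STM in shoot meristems and boundaries, was at 4.02, 4.87 and 2.95 CPM in wild type and at 6.70, 5.55 and 5.53 CPM in the mutant. The groups did not overlap (log2 0.57, SE 0.19, adjusted p = 0.0868), and ATH1 passed as higher without WT 2 (log2 0.74, adjusted p = 0.0469). RPL, also called PENNYWISE, the partner of KNAT1 in the stem, was at 5.94 ± 1.40 and 7.54 ± 0.716 CPM (log2 0.31, adjusted p = 0.315). Its close relative BLH8, or POUND-FOOLISH, had 14, 0 and 2 counts in wild type and 16, 16 and 24 in the mutant (log2 1.52, SE 0.69, adjusted p = 0.218). BLH2 and BLH4, which restrict KNOX expression at leaf margins, were at -0.19 and -0.36 on the log2 scale (adjusted p = 0.415 and 0.129). BLH6, the partner of KNAT7, was at 0.19 (adjusted p = 0.242). BLH7, BLH3 and BEL1, a regulator of ovule integuments, were at 0.16, -0.02 and -0.14 (adjusted p = 0.193, 0.919 and 0.538). BLH7 shares 83 exon bases with DRD1.

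**Figure D3:**
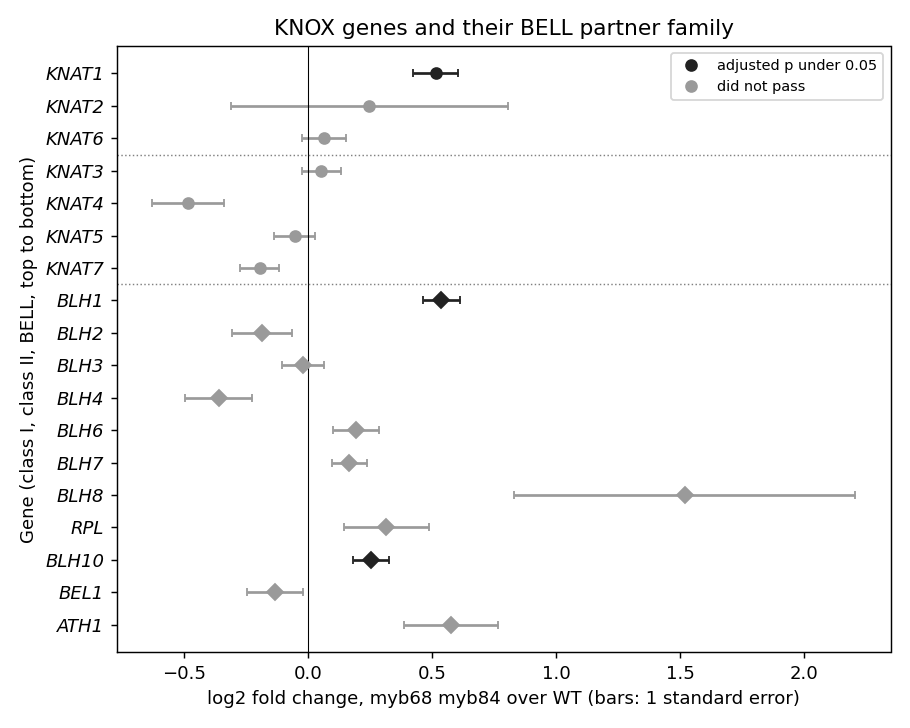
Log2 fold change of myb68 myb84 over WT with 1 standard error, for the 7 tested KNOX genes (circles) and the 11 tested BELL genes (diamonds), dark where the adjusted p was under 0.05. KNAT1 at 0.51 and BLH1 at 0.54 are the largest of the called values, and KNAT4 at -0.49 is the lowest value.

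Genes that act around the KNOX family gave few calls. Among 10 tested regulators known to repress class I KNOX genes in leaves, 1 rose and 0 fell, against 4.66% and 3.65% of all tested genes, with a median of -0.02. An unadjusted p under 0.05 was reached by 1 lower gene, against 10.8% of all tested genes. This was the Polycomb gene CLF (log2 -0.35, edgeR adjusted p = 0.0768), which DESeq2 called and edgeR and limma-voom did not. CLF was named after its value was seen. The gene that rose was BOP2, a BTB and ankyrin protein of organ boundaries. BOP2 was at 13.2, 10.2 and 12.3 CPM in WT 1, 2 and 3 and at 17.6, 17.2 and 19.7 CPM in the mutant libraries. Every mutant library was higher, by 1.52-fold on average (log2 0.61, SE 0.12, adjusted p = 0.00609). Its relative BOP1 did not pass, and AT2G41375, which shares 395 exon bases with BOP2 on the opposite strand, had no counts.

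In the list of hormone and boundary genes linked to class I KNOX genes, 2 of 11 tested rose and 0 fell, against 4.66% and 3.65% of all tested genes, with a median of 0.25 against -0.0026. The 2 were LSH3 and LSH4, ALOG family genes of shoot organ boundaries that are known as targets of CUC1. The tested gibberellin and cytokinin enzymes of the list ran from -0.85 to 0.31 on the log2 scale, with edgeR adjusted p of at least 0.239. None of these enzymes passed, but so few genes cannot show that they were unchanged. LSH4 was at 30.3, 27.9 and 25.5 CPM in wild type and at 37.6, 38.0 and 37.4 CPM in the mutant. The mutant libraries lay close together and above the wild type (log2 0.43, SE 0.08, adjusted p = 0.00597). LSH3 averaged 8.90 ± 0.49 CPM in the wild type against 11.99 ± 1.25 CPM (log2 0.43, SE 0.12, adjusted p = 0.0452). The LSH3 call ended on leaving out any 1 of the 6 libraries (adjusted p 0.0576 to 0.215), with upper-quartile scaling (0.0543), with the replicate number as a block (0.0592) and in thinned libraries (0.0555).

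Secondary wall genes around KNAT7 had 0 calls among 12 tested, against 8.30% of all tested genes, with a median of 0.12. An unadjusted p under 0.05 was reached by 2 higher and 1 lower gene, against 11.2% and 10.8% of all tested genes. DESeq2 and limma-voom gave 0 calls. So few genes cannot show that the list was unchanged. FRA8, a glycosyltransferase of xylan synthesis, was at 100.3 ± 6.62 and 122.3 ± 19.4 CPM (log2 0.29, adjusted p = 0.128), and F5H1, the ferulate 5-hydroxylase of lignin, was at 71.7 ± 7.86 and 75.2 ± 5.61 CPM (log2 0.07, adjusted p = 0.702). FRA8 shares 49 exon bases with AT2G28105, and it passed as higher without myb68 myb84 1 (log2 0.41, adjusted p = 0.0146). KNATM, a KNOX gene without a homeobox, had 0 counts in all 6 libraries, which allows up to 3 fragments, a one-sided limit below the upper end of the interval used for STM, or 0.107 to 0.309 CPM per library. Of the OVATE family genes, 3 were tested and 0 called, against 8.30% of all tested genes, with 0 calls in DESeq2 and limma-voom. An unadjusted p under 0.05 was reached by 1, higher, against 11.2% of all tested genes. OFP1 and OFP2, of which OFP1 is a partner of KNAT7, were at 0.39 and -0.16 on the log2 scale (adjusted p = 0.130 and 0.597).

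Markers of cell types in the segment moved in part with the genotype. The 6 markers of shoot meristem and leaf summed to 2120, 2294 and 1391 CPM in WT 1, 2 and 3. In the mutant libraries they summed to 2520, 2904 and 2576 CPM, and WT 3 was the lowest of all, as for KNAT1. Most of this sum was the leaf gene LHCB1.3, at 1506 ± 378 and 1975 ± 166 CPM, which did not pass (log2 0.39, adjusted p = 0.212). The sum therefore describes leaf genes and not the shoot meristem. Of these markers 4 were tested, 1 rose and 0 fell, against 4.66% and 3.65% of all tested genes, and 3 passed as higher with the replicate number as a block. RBCS1A, the small subunit of Rubisco, rose from 413 ± 94.7 to 665 ± 37.9 CPM (log2 0.69, adjusted p = 0.0226), a call that ended without any 1 mutant library (adjusted p 0.0578 to 0.0886). The defining genes of the shoot meristem were at or near 0, with 0 counts of WUS in all libraries and 2 counts of CLV3, in WT 2. The part of green or shoot tissue in the KNAT1 result was not tested.

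Phellem markers were lower in sum. All are genes of suberin synthesis, so less phellem and lower expression of these genes cannot be told apart here. Of 4, 3 fell and 0 rose, against 3.65% and 4.66% of all tested genes, and their sum was 683 to 731 CPM in wild type and 496 to 553 CPM in the mutant. CYP86A1, FACT and GPAT5, enzymes of suberin synthesis, fell by 0.55, 0.46 and 0.50 on the log2 scale (adjusted p = 0.00108, 0.00274 and 0.0104). The GPAT5 call ended without myb68 myb84 1 (adjusted p = 0.0506) and without myb68 myb84 2 (0.0518). Cambium markers, relevant to KNAT1, had 0 calls among 7, against 8.30% of all tested genes, and 0 calls in DESeq2 and limma-voom. An unadjusted p under 0.05 was reached by 1, lower, against 10.8% of all tested genes. The cambium markers summed to 146 to 155 CPM in wild type and 135 to 154 CPM in the mutant, with overlapping ranges. PXY, a receptor kinase of the cambium, was at 0.10 and CYCD3-1, a cambial D-type cyclin, at -0.24 (adjusted p = 0.486 and 0.124), and CYCD3-1 shares 40 exon bases with AT4G34150. The xylem list, the phloem list and the list of lateral root and root meristem had 0 calls among 3, 3 and 7. This held in edgeR, DESeq2 and limma-voom, against 8.30% of all tested genes in edgeR. An unadjusted p under 0.05 was reached by 1, 0 and 1 of these genes, all lower, against 10.8% of all tested genes. So few genes cannot show that a list was unchanged. XCP1 and XCP2, xylem proteases, were at -0.25 and -0.11 (adjusted p = 0.0832 and 0.483). XCP1 passed as lower in edgeR with the replicate block (adjusted p = 0.0480), in thinned libraries (0.0409) and without WT 2 (0.0393). PLT3 and PLT1, meristem regulators of the root, were at -0.22 and 0.15 (adjusted p = 0.294 and 0.648). PLT3, at 15.0 and 12.8 CPM, shares 454 exon bases with RBK1 on the opposite strand, a gene at 40.6 and 51.8 CPM (log2 0.34, adjusted p = 0.0843), and reads there cannot be told apart without strand.

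**Figure D4:**
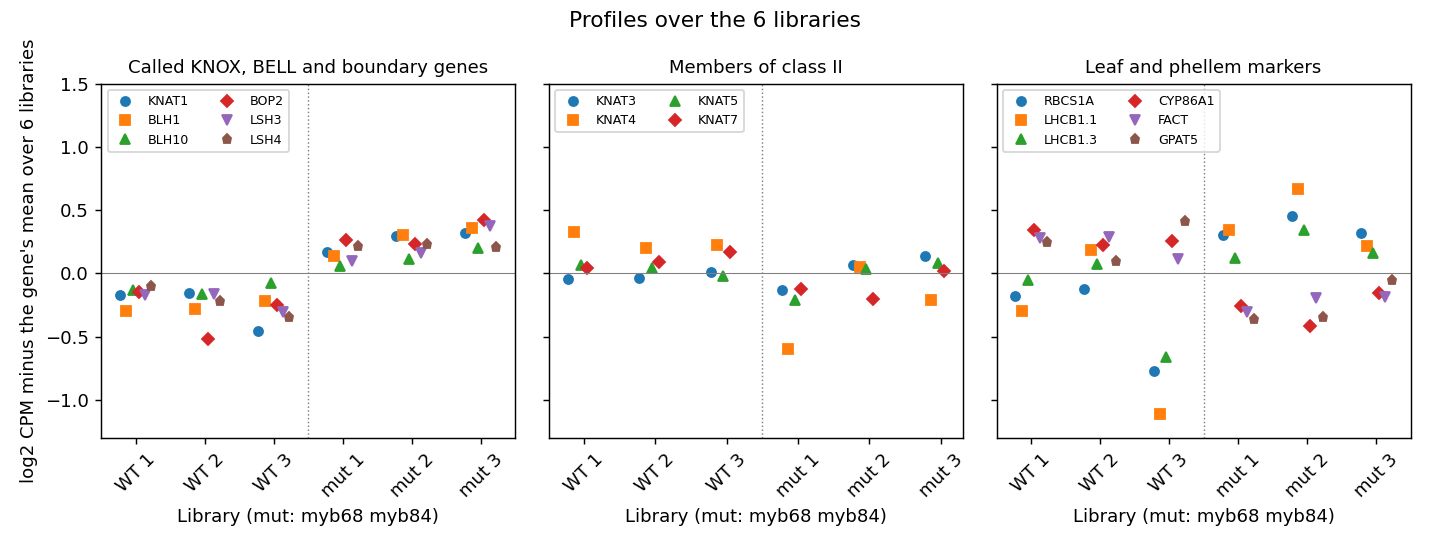
Log2 CPM minus each gene's own mean over the 6 libraries, for the called KNOX, BELL and boundary genes, the class II members, and leaf and phellem markers. The 6 genes on the left are above 0 in all mutant libraries and below 0 in all WT libraries, and the leaf markers on the right are lowest in WT 3. The genes on the left were chosen because they were called higher, so their signs largely follow from that choice.

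The genes whose profile over the 6 libraries lay nearest to that of KNAT1 were found among 17989 tested genes with a mean of at least 2 CPM, by the root mean square difference of log2 CPM after centring each gene on its own mean. The nearest was AT5G13920, annotated as a zinc knuckle protein, at 0.0401 on the log2 scale. It went from 1.97 ± 0.212 to 2.75 ± 0.194 CPM and did not pass (log2 0.47, adjusted p = 0.226). The next 4 passed: AT1G07700, a thioredoxin superfamily gene, at a distance of 0.0411, UMAMIT45, of a transporter family, at 0.0469, PSAH-1, a subunit of photosystem I, at 0.0470, and AT2G14880, a SWIB domain gene, at 0.0479. PSAH-1 was at 19.4, 20.2 and 14.8 CPM in WT 1, 2 and 3 and at 25.01, 27.5 and 27.0 CPM in the mutant libraries. These genes were chosen for their likeness to KNAT1, so a shared order of libraries is no finding. With 1 library left out, the calls of AT1G07700 (adjusted p up to 0.0708), UMAMIT45 (up to 0.136) and AT2G14880 (up to 0.0672) ended in some fits, and that of UMAMIT45 also in thinned libraries (0.0590).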

How the data were processed

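The 6 libraries were grouped by their titles. The deposited files hold raw counts per gene identifier, 1 column per library, which the authors did not normalize. The submitters' processing notes name Trim Galore, HISAT, featureCounts, DESeq2 and the build TAIR10. Versions, annotation release, strandedness and multi-mapping were not given in the sources used here. RefSeq's TAIR10.1 annotation and genome gave positions, exon lengths and sequences (32548 identifiers matched).

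Genotypes were compared with edgeR 4.0.16 (R 4.3.3), by its robust quasi-likelihood test with TMM scaling, the filterByExpr minimum count of 10, genotype as the only term and Benjamini-Hochberg adjustment over 20941 genes at 0.05. Log2 fold changes give the mutant over the wild type, with SE = log2 fold change / square root of F. CPM are after TMM scaling, and levels per kb divide by the union of exons. Log2 CPM had a prior count of 2. The p-values measure the spread between pools of plants. Deviations from the group means correlated weakly between same-numbered libraries (-0.00589, 0.0244 and 0.0837). Between libraries of different number the correlations were -0.0649 to 0.0339. The numbers were not used as pairs, and a replicate block was run as an alternative. Poisson intervals are at 95%.

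In counts simulated for this comparison (20802 genes), edgeR recovered 72 of 100 changes of 1.5-fold and 93 of 100 changes of 2-fold, and called 14 unchanged genes. Changes were put only into genes with a mean of at least 2 CPM, so these rates do not apply to STM, KNAT2 or BLH8. Far fewer genes were changed than the 1739 called in the data. The alternatives were other scalings (DESeq2 size factors, upper quartile), no filter, a filter at 1 CPM in 3 libraries, DESeq2 1.42.0, limma-voom (limma 3.58.1), a replicate block, thinning to 19446419 counts and leaving out each library. Dividing counts by 2 was added after low counts were seen to be mostly even.

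The members and lists were chosen with earlier results of these data known. Named by rule were all KNOX and BELL genes, up to 6 called members of each other list or else its 2 most abundant, and the 5 genes nearest to KNAT1. Phloem markers are given as counts of calls. Genes named outside the rule are CLF, BOP1, KNATM, WUS, CLV3, LHCB1.3, MYB68, MYB84 and the overlapping genes.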

Additional observations from a re-analysis of the deposited data

How the results depend on the processing

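The KNAT1 call held under every alternative, with log2 fold changes of 0.43 (without WT 3) to 0.56 and 1 KNOX gene called higher in each. KNAT4 lay at the threshold. It passed as lower, so that 1 KNOX gene was lower, with upper-quartile scaling (-0.51), no low-count filter (-0.48), DESeq2 (-0.49), limma-voom (-0.53), the replicate block (-0.51) and counts divided by 2 (-0.50), and did not in thinned libraries (-0.43). With 1 library left out, 0 to 1 KNOX genes were lower: KNAT4 without myb68 myb84 2 and STM without WT 3. In these fits KNAT4 ran from -0.64 to -0.33, and STM from -2.92 to -1.55 in the 5 that tested it. KNAT2 ran from -0.18 to 0.61, KNAT3 from -0.007 to 0.13, KNAT5 from -0.11 to 0.031 and BLH3 from -0.083 to 0.068. The signs of KNAT2, KNAT3, KNAT5 and BLH3 are thus not settled.

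Over all genes the number higher ran from 579 to 947 and the number lower from 435 to 723 with 1 library left out. Upper-quartile scaling gave 875 higher and 895 lower, and the replicate block gave 1154 higher and 915 lower. BELL genes called higher numbered 1 with upper-quartile scaling and 1 to 2 with a library left out, the 2 being BLH1 and ATH1 without WT 2. LSH genes called higher numbered 1 with upper-quartile scaling, the replicate block, thinned libraries and each library left out. KNOX repressors lower numbered 1 with no low-count filter and with DESeq2 and 0 to 1 with a library left out, and secondary wall genes higher 0 to 1. Shoot and leaf markers higher numbered 3 with the replicate block and 0 without any 1 mutant library, and xylem markers lower 1 with the block, in thinned libraries and without WT 2. MYB84 did not pass in limma-voom or thinned libraries (adjusted p = 0.0613 and 0.0799), and MYB68 passed as higher with DESeq2, no low-count filter, the block and thinned libraries (0.00999 to 0.0479). The causes were not tested. The replicate block changed no other KNOX or BELL call.

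Depth limits STM, KNAT2 and BLH8, which rest on at most 54 counts per library. Which alleles the line carries, and which cells hold the KNAT1 transcripts, cannot be read from these counts.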
